A study of Mus musculus with 2 samples.

Results

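Frame-preserving cassette exons are internal exons that some mature messages keep and others skip, and whose length is a whole number of codons. In embryonic mouse central nervous system 2560 such exons of 28 to 300 nt, in 2047 genes, met the criteria used here, out of 351001 annotated exons and 6190 cassette exons of every length. They were selected on measured reads: both junctions that include the exon and the junction that skips it had to be present, with 20 or more reads in all, the inclusion junctions within 3-fold of each other, and an inclusion of 5% to 95%. Inclusion is the mean of the reads on both inclusion junctions divided by that mean plus the skipping reads, and an exon with several sets of junctions was read from the set with the most reads. Because inclusion and length chose the exons, their inclusion is a description here and is not tested.

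The tissue was central nervous system of C57BL/6J embryos at 18 days, from littermates of both sexes, with no treatment or mutation named in the labels. Polyadenylated RNA was sequenced as stranded pairs. The 2 libraries form 1 group and are labelled biological replicates 1 and 2, with the number of embryos in each not stated. The junction file carries 2 read columns, R1 and R2, which its names do not tie to replicate 1 or 2, so both values are given side by side.

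An exon whose length is divisible by 3 can be dropped without changing the reading frame downstream, so that the message codes for a protein with or without a short segment. Skipping or including an exon of another length shifts the frame, which often brings a stop codon early in the message and can expose it to nonsense-mediated decay, the pathway that degrades such messages. Neurons are known for extensive use of cassette exons, among them exons in cytoskeletal, synaptic and adhesion proteins, under regulators such as the Rbfox, Nova, Ptbp and Srrm4 proteins.

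The junction file held 48204482 reads in R1 and 69266527 in R2, and 2.05% of all junction reads fell on the 3 junctions of the exons described. The labelled libraries held 93979836 and 137012773 estimated fragments on genes. The 5 neuronal markers summed to 4776 and 4462 TPM (transcript abundance scaled to a fixed total per library and corrected for length) in replicates 1 and 2. The libraries differed in other cell types: 5 of 5 skeletal muscle markers were higher in replicate 2, with sums of 12.9 and 475 TPM, as were 3 of 3 bone and fibroblast markers, with sums of 57.3 and 273 TPM, and the choroid plexus marker Ttr, at 427 and 1389 TPM. The 2 blood markers were higher in replicate 1, summing to 763 and 531 TPM. In bulk tissue, more cells of a type and more RNA per cell cannot be told apart.

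The sequences of 10 wholly coding members show how such exons sit in the reading frame. They were taken from GENCODE M21 transcripts on GRCm38, after the exon was matched by gene, length and the lengths of both introns, and are written 5′ to 3′ in the direction of the message. Capitals mark bases that belong to a codon shared with a neighbouring exon. The first 2 start between codons and carry no capitals, the next 5 start after base 1 of a codon and the last 3 after base 2.
Nnat 81 nt, chr2:157561213-157561293, plus strand: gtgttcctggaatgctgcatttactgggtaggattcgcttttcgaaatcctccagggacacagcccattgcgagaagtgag
Camk2b 45 nt, chr11:5981070-5981114, minus strand: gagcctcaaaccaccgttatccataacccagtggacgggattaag
App 168 nt, chr16:85043576-85043743, minus strand: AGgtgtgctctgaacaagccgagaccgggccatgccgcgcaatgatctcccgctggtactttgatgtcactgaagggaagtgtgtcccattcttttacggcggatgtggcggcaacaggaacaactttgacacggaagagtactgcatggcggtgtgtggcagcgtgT
Hnrnpab 141 nt, chr11:51601750-51601890, minus strand: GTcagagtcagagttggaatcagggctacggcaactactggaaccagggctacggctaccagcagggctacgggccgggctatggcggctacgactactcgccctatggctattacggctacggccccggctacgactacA
Stmn4 81 nt, chr14:66356269-66356349, plus strand: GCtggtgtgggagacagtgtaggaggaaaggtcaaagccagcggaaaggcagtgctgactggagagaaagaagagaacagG
Nrcam 30 nt, chr12:44566840-44566869, plus strand: CTcctactccaactccagcccccatttacG
Ppp3ca 30 nt, chr3:136932011-136932040, plus strand: CTactgttgaggctattgaggctgatgaaG
Clta 54 nt, chr4:44030215-44030268, plus strand: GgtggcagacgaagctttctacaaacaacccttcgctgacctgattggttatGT
Clta 36 nt, chr4:44031400-44031435, plus strand: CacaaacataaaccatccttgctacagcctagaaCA
Evl 63 nt, chr12:108683348-108683410, plus strand: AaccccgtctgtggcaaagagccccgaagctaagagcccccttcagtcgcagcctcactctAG

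The 10 members with the most junction reads ran from nearly always skipped to nearly always included. All positions of exons from here on are those of the mm9 exon file. Nnat encodes neuronatin, an imprinted membrane protein of developing brain whose long and short forms differ by the 81 nt exon shown above. Its inclusion was 51.0% in R1 and 47.2% in R2 on 108315 reads, the most of any member. The transcript tables gave 36.9% and 37.3% for replicates 1 and 2. This readout sums TPM of annotated transcripts that join the exon to the same neighbouring exons on both sides. It is given as a share of that sum plus the TPM of transcripts that join those neighbours directly. Transcripts with other joins are left out, so the readout need not cover the whole gene. Meg3, an imprinted noncoding RNA, has a member of 81 nt at chr12:110787501-110787581 with 23.7% in R1 and 22.9% in R2, beside 32.8% and 34.7% from transcripts. Both imprinted genes thus had intermediate or low inclusion, and the columns of each lay within 4 points.

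Clta, which encodes a clathrin light chain of coated vesicles, holds 2 of the 10. Its 54 nt exon was included at 76.2% in R1 and 76.3% in R2, and at 72.9% and 72.7% by transcripts. The 36 nt exon that follows stood at 10.2% and 9.84%, and at 9.34% and 8.99% by transcripts. The skipping junction of the 36 nt exon is a junction of the 54 nt exon, so its inclusion is read among messages that hold the 54 nt exon. For both exons the junction and transcript readouts lay within 4 points.

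The member of App, which encodes the amyloid precursor protein, is the 168 nt exon for the protease inhibitor domain that the main neuronal form lacks. Inclusion was 6.18% in R1 and 6.51% in R2, with an exact 95% interval of 5.91% to 6.84% on the summed reads. The inclusion junctions held 480 and 905 reads beside 10182 skipping reads, so either junction alone gives a value outside this interval. Its paralogue Aplp2 has a member of the same length, included at 70.2% in R1 and 66.7% in R2. Intervals here and below are Clopper-Pearson and cover counting error only.

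Stmn4, which encodes a stathmin that binds tubulin, had its 81 nt exon at 11.4% and 12.7%. Prmt1, an arginine methyltransferase, had a 54 nt exon at 8.72% and 8.84%. Ybx1, a cold shock protein that binds RNA, had a 90 nt exon at 93.4% and 92.1%. The symbol table lists a pseudogene named after Ybx1, so its reads may be shared with a near-identical copy, which was not tested. Klc1, a kinesin light chain, had a 51 nt exon at 93.3% and 91.2%. Hnrnpab had its 141 nt exon at 18.7% in both columns, where transcripts gave 49.4% and 49.5%. Of the 3 with transcript values, Hnrnpab was the exon on which the readouts lay furthest apart. No transcript value was available for Klc1, Prmt1 or App. Uneven inclusion junctions were not limited to App. They held 621 and 1567 reads in Prmt1, 1149 and 2460 in Stmn4, 9754 and 3512 in Ybx1, and 11024 and 20020 in Meg3. In each of these, either junction alone gives another inclusion than the mean of both.

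**Figure D1:**
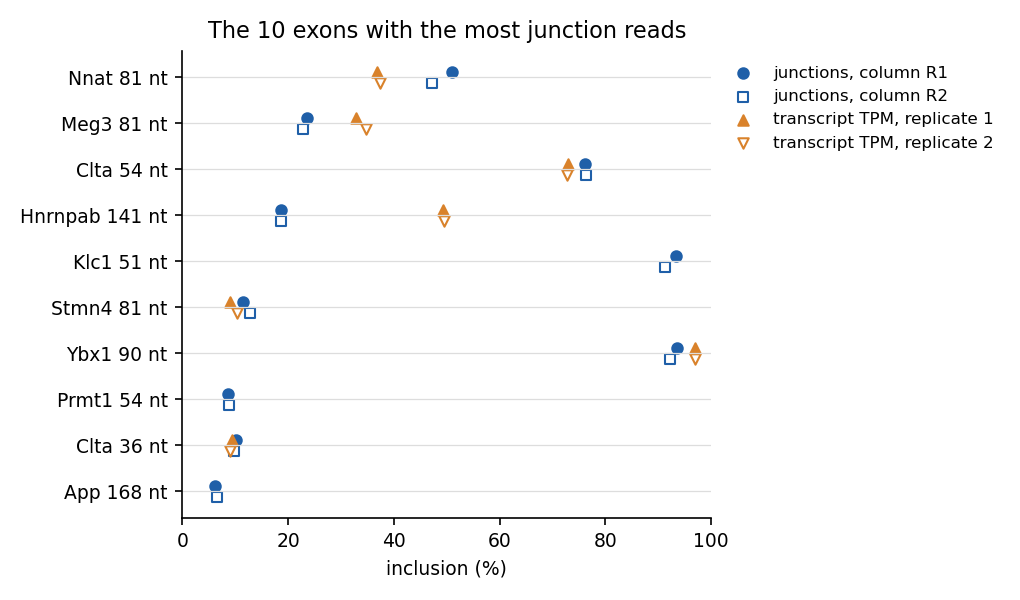
Inclusion in percent (horizontal axis) of the 10 members with the most junction reads: blue marks are columns R1 and R2 of the junction file and orange marks the transcript TPM of replicates 1 and 2, where annotated transcripts allowed a value. The 2 marks of each readout nearly coincide, while the readouts themselves lie about 30 points apart for Hnrnpab (18.7% and 49.4%).

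Across the 2560 members the median inclusion was 74.4%, with quartiles of 38.7% and 90%. Inclusion of at most 20% was found for 389 members, and 266, 314 and 470 lay in the successive ranges up to 40%, 60% and 80%. The remaining 1121, or 43.8%, lay above 80%. The 3142 cassette exons of the same sizes whose length is not divisible by 3 had a median of 85.4%, and 59.1% of them lay above 80%. Intermediate inclusion, from 20% to 80%, held 41.0% of the frame-preserving and 29.98% of the frame-shifting exons.

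Read the other way, the share of exons divisible by 3 varied with inclusion. Among all exons of 28 to 300 nt with the 3 junctions, enough reads and balanced inclusion junctions, it was 45.1% of 852 below 5% inclusion and 53.1% of 732 from 5% to 20%. It was 56.1% of 474 from 20% to 40% and 56.1% of 560 from 40% to 60%. It then stood at 49.1% of 958 up to 80%, at 37.6% of 2978 up to 95%, and at 38.1% of 17409 above 95%. All internal annotated exons of these sizes stood at 39.8% of 178269. The share was thus highest from 20% to 60% inclusion, still above that of the annotation below 20% and from 60% to 80%, and nearly constitutive exons had a share close to that of the annotation. These are shares of exons, not replicates, and no test was made.

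**Figure D2:**
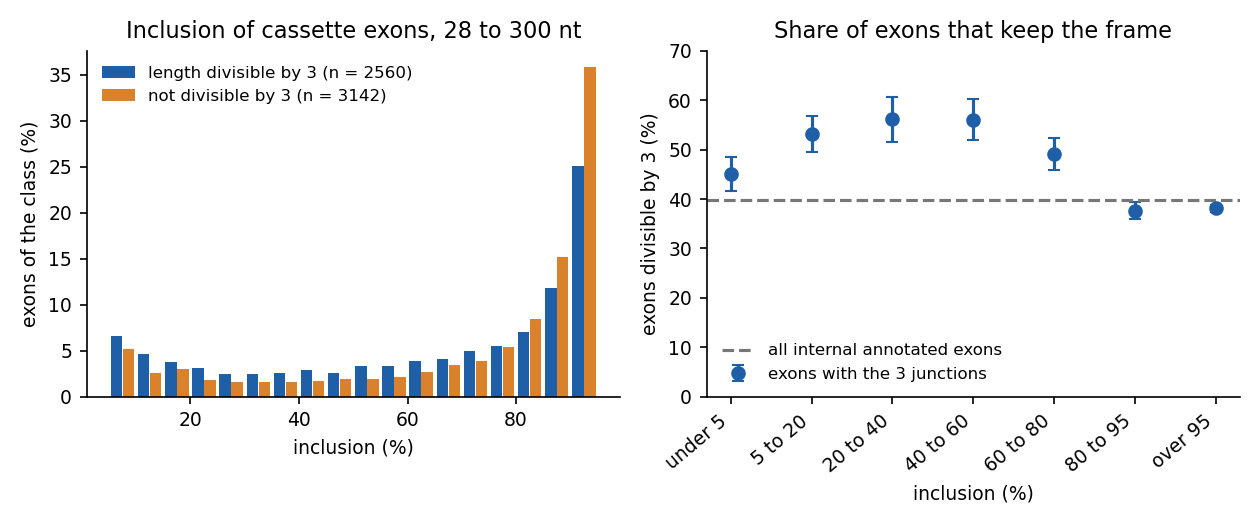
Left, share of each class (vertical axis, percent) in 5-point ranges of inclusion, for 2560 exons divisible by 3 (blue) and 3142 that are not (orange). Right, percent of exons divisible by 3 in each range of inclusion, with exact 95% binomial intervals for counting error, against all internal annotated exons (dashed, 39.8%): the points up to 80%, that under 5% included, lie above the line and those over 80% below it.

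Members were short. Their median length was 96 nt, against 109 nt for frame-shifting cassette exons and 121 nt for internal annotated exons of 28 to 300 nt. Exons of 28 to 50 nt made up 12.9% of members but 4.83% of internal annotated exons divisible by 3. Median inclusion was lower in shorter members, at 63.2% for 331 exons of 28 to 50 nt, 71.4% for 1025 of 51 to 100 nt, 78.3% for 758 of 101 to 150 nt and 83.2% for 446 of 151 to 300 nt. Frame-shifting exons varied less over the same lengths, with medians of 83.5%, 83.0%, 86.6% and 86.7%. Introns before and after the members had median lengths of 2270 and 2311 nt, beside 2116 and 2006 nt for the frame-shifting exons.

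The place of the exon in the message could be read for the 2524 members that matched GENCODE M21. Wholly coding exons numbered 2042, or 80.9%, and had a median inclusion of 78.6%. Partly coding exons, which hold a start or stop codon in the annotation, numbered 183 at a median of 55.8%. The 245 members of coding genes that no annotated transcript translates, called untranslated parts here, had a median of 44.2%, and the 54 in noncoding genes 65.1%. Frame-shifting exons had higher medians where they code, 88.4% for wholly and 63.6% for partly coding exons. In untranslated parts the medians of the classes were 44.2% and 43.9%. Some of these exons lie between coding exons of a transcript that skips them, as in Dvl1, so frame can matter there.

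The 4 untranslated members with the most reads, chosen after their values were seen, spanned low to high inclusion. Hnrnpdl, which encodes an RNA-binding protein, had a 105 nt exon at 34.4% in R1 and 31.7% in R2, beside 49.5% and 49.4% from transcripts. Dvl1, which encodes a dishevelled protein of the Wnt pathway, had a 39 nt exon at 71.4% and 74.3%. Sfswap, a splicing regulator, had a 153 nt exon at 18.9% and 26.0%, and Cuedc2 a 99 nt exon at 10.4% and 11.4%.

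A frame-preserving exon can still end the protein if it carries a stop codon in the frame in which it is read. Where an annotated protein-coding transcript skips the exon between coding exons, its frame was carried into the exon. Where several such transcripts differed, the frame with the fewest stops was used. Only the exon itself was searched for stops. Of 1460 members with such a frame, 143, or 9.79%, held a stop, and their median inclusion was 23.5%, against 64.5% for the 1317 without. Inclusion was at most 20% for 64 of the 143 and for 222 of the 1317. Among frame-shifting exons 279 of 554 held a stop, with medians of 21.1% with it and 75.8% without. Frame-shifting exons without a stop still shift the frame downstream, where stops were not searched, so they are not like the members without one. Stop-bearing exons of both kinds were thus skipped more often than included at the median.

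Stop-bearing members were not all of low inclusion, as shown by the 8 with the most reads, a set chosen after values were seen. For 6 of these, and for Tra2b, which is shown because it is described again below as called between the columns, bases are given from the first base of the exon to the first stop in frame, which is in capitals, with the GRCm38 position of the whole exon.
Klc1 51 nt, chr12:111793649-111793699, plus strand: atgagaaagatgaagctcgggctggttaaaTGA
Nap1l4 36 nt, chr7:143518850-143518885, minus strand: gtgTAA
Kifap3 66 nt, chr1:163912072-163912137, plus strand: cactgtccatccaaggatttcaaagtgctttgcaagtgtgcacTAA
Dnajc5 75 nt, chr2:181548926-181549000, plus strand: gagggcacTGA
Rps9 174 nt, chr7:3706008-3706181, plus strand: cctttggagcTGA
Mgrn1 45 nt, chr16:4934195-4934239, plus strand: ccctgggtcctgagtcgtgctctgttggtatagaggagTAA
Tra2b 276 nt, chr16:22258986-22259261, minus strand: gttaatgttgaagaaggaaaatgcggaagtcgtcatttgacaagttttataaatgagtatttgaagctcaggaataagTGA
The Klc1 exon, at 92.0% on the summed reads, ends an annotated form of this kinesin light chain. Kifap3, which links kinesin to its cargo, had its exon at 45.2% in R1 and 47.8% in R2, and transcripts gave 46.0% and 48.4%. Mgrn1, a ubiquitin ligase, stood at 52.6% and 54.1% by junctions and at 85.7% and 86.2% by transcripts. Nap1l4, a histone chaperone, had a 36 nt exon with 3 stops at 55.6% and 56.1%. Dnajc5, the cysteine string protein of synaptic vesicles, had a 75 nt exon with 3 stops at 19.8% and 21.2%. Rps9, a protein of the small ribosomal subunit, had a 174 nt exon with 3 stops at 6.76% and 6.68%. Atp11b, a membrane flippase gene, had a 126 nt exon with 1 stop at 86.2% and 88.4%, and Dvl1 a 39 nt exon with 1 stop, whose values are given above. The Tra2b exon, an exon known to shut off production of this splicing activator when included, held 8 stops.

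**Figure D3:**
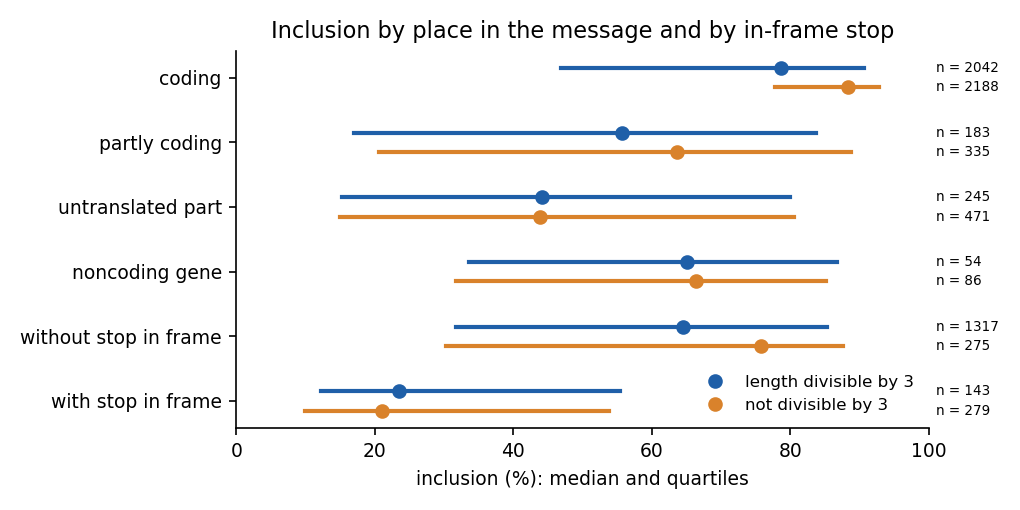
Median inclusion (points) and quartiles (bars), in percent, by place of the exon in the message and by presence of a stop codon in the frame of the skipping transcript, for exons divisible by 3 (blue) and not (orange), with the number of exons at the right. The classes lie apart in coding exons (78.6% and 88.4%), close together in untranslated parts (44.2% and 43.9%), and low in both where a stop is in frame (23.5% and 21.1%).

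The annotation of the skipped form also differed between classes. The skipping junction was flagged as annotated for 64.6% of members and 43.3% of frame-shifting exons. In both classes an annotated skipping junction went with lower inclusion: among members the median was 59.0% for the 1653 with it and 88.7% for the 907 without. Of 1759 members with an annotated skipping transcript, 92.5% had a protein-coding skipping transcript and 1.31% had only ones annotated as targets of nonsense-mediated decay. For 1613 frame-shifting exons these shares were 56.2% and 21.8%. Of members with an unannotated skipping junction, the 4 with the most reads over their 3 junctions were picked after their values were seen, an order that favours high inclusion. They were a 123 nt exon of the proteasome gene Psmb2 at 94.8% with 226 skipping reads, a 66 nt exon of the postsynaptic scaffold gene Dlg4 at 91.5% with 296, a 153 nt exon of Ociad1 at 86.3% with 476 and a 129 nt exon of Ivns1abp at 87.1% with 430.

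Where the exon starts within a codon sets whether the segment can be added without altering the flanking residues. Of 2037 coding members with a single reading, 936, or 45.9%, started between codons. A further 778, or 38.2%, started after base 1 of a codon and 323, or 15.9%, after base 2. All 63897 internal coding exons of GENCODE M21 divisible by 3 stood at 57.0%, 29.8% and 13.1%. Compared with these, starts after base 1 were thus the more frequent among members and starts between codons the less frequent. Both also held for the 2179 coding frame-shifting cassette exons with a single reading, at 38.4%, 34.0% and 27.6%. Median inclusion of the members was 81.6%, 76.1% and 76.7% in the same order.

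The last bases of the members resembled those of exons in general. The exon ended in G for 78.9% of 2524 matched members and 79.5% of 195482 internal exons of GENCODE M21. It ended in CAG for 23.1% and 23.0%, and in AAG for 20.3% and 19.1%. In the first or last 28 nt, on the strand of the message only, GAAGAA, a purine-rich exonic enhancer motif, occurred in 4.44% of members and 6.07% of internal exons. Frame-shifting cassette exons held GAAGAA at nearly the share of the members, 4.42%. TGCATG, the motif of Rbfox proteins, occurred in 1.51% of members and 1.54% of internal exons, and TTCTCT, a motif of Ptbp proteins, in 2.34% and 1.74%. These letters can overlap each other at most at their ends, and the introns, where such factors also bind, were not analysed here. Median GC content was 50.8% in members and 50.3% in internal exons.

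Host genes were grouped in 7 lists by role, which held 620 members and 1023 genes. Members in no list had a median inclusion of 78.2%, and each list lay below that, from 55.5% to 69.2%. The lists differed in how often their cassette exons of 28 to 300 nt kept the frame: from 54.96% for RNA-binding and splicing regulators to 84.8% for adhesion, guidance and matrix, beside 44.9% over all cassette exons of these sizes. No test was made of these shares.

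The cytoskeletal list had 108 members in 66 of 140 genes, with a median of 55.5%, and 79.4% of its cassette exons kept the frame. Evl, an actin regulator of the Ena/VASP family, had its 63 nt exon at 10.6% in R1 and 10.1% in R2, and at 11.9% in both libraries by transcripts. Dync1i2, a dynein intermediate chain, had a 60 nt exon at 94.98% and 94.2%. A 60 nt exon of Sptan1, which encodes a spectrin, stood at 42.7% and 51.1%, a gap of under 10 points. Transcripts gave 77.2% and 82.3% for the Sptan1 exon.

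The list of membrane traffic had 90 members in 60 of 128 genes, with a median of 63.9%. Besides Clta, its members with the most reads were in Mff, a receptor for mitochondrial fission, whose 159 nt exon was at 59.9% and 58.3%, and in Picalm, a clathrin adaptor, whose 150 nt exon was at 86.8% and 87.2%. For Mff the transcripts gave 61.0% and 58.6%, within 2 points of the junctions.

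The list of synapse, receptors and channels had 97 members in 62 of 128 genes, with a median of 57.6%, and 25 lay at 20% or less. App and Aplp2 were among its leading members by reads. Camk2b, a calcium/calmodulin-dependent kinase, had its 45 nt exon at 60.4% and 59.3% by junctions and 80.4% and 80.3% by transcripts. Adgrl2, an adhesion receptor that binds teneurins, had a 129 nt exon at 84.2% and 84.9%.

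The list of adhesion, guidance and matrix had 78 members in 49 of 126 genes, with a median of 58.4%. Of its 71 coding members with a single reading, 53, or 74.6%, started after base 1 of a codon, against 38.2% of all coding members. In the other 6 lists this share ran from 26.7% to 49.2%. Other exons of the same genes were not compared, so the share need not be particular to the members. Ctnna2, a catenin of neurons, had a 144 nt exon at 64.1% and 61.4%. Neo1, a netrin receptor, had a 159 nt exon at 40.9% and 35.8%. The cell adhesion genes Chl1 and Nrcam had members of 162 and 30 nt, at 94.0% and 92.7% and at 94.6% and 92.9%.

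**Figure D4:**
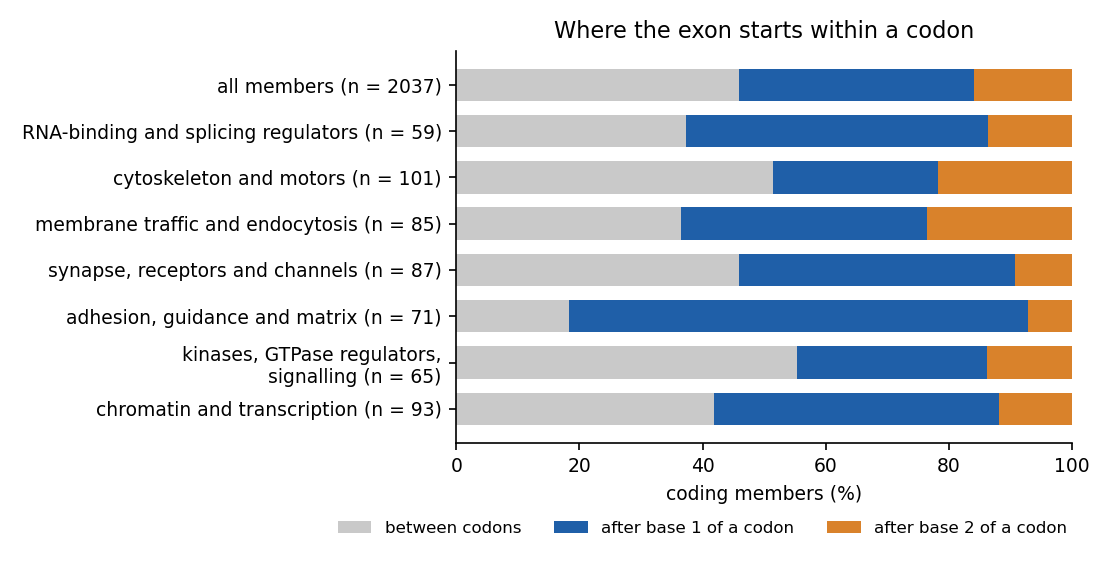
Percent of wholly coding members (horizontal axis) that start between codons (grey), after base 1 (blue) or after base 2 of a codon (orange), for all 2037 and for each list of host genes. The adhesion, guidance and matrix list stands out with 74.6% after base 1, against 38.2% of all members.

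RNA-binding and splicing regulators had 72 members in 60 of 165 genes, with a median of 65.5%. Hnrnpd, which binds AU-rich elements, had a 57 nt exon at 78.2% and 80.3%, beside 55.8% and 59.7% from transcripts. Pcbp2, which binds poly(C), had a 93 nt exon at 59.6% and 58.2%, and Hnrnpa1 a 159 nt exon at 96.2% and 89.5%. For Hnrnpa1 the transcripts gave 30.4% and 30.3%, so the 2 readouts stood on opposite sides of equal inclusion and skipping.

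Kinases, GTPase regulators and signalling genes had 76 members in 54 of 158 genes, with a median of 63.3%. Map4k4 held 2 of the 4 with the most reads, a 192 nt exon at 66.1% and 65.2% and a 162 nt exon at 85.1% and 82.8%. Transcripts gave 34.3% and 32.8% for its 192 nt exon and 78.5% and 74.7% for its 162 nt exon. Ppp3ca, the catalytic subunit of calcineurin, had its 30 nt exon at 40.7% and 41.9%.

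Chromatin and transcription genes had 101 members in 75 of 179 genes, with a median of 69.2%. Myef2 had a 72 nt exon at 66.5% and 64.9%, and Zmynd11, a reader of histone methylation, a 162 nt exon at 65.1% and 64.7%. Transcripts gave 68.4% and 67.0% for Myef2 and 51.2% and 51.8% for Zmynd11. The remodelling genes Chd3 and Smarcc2 had exons of 102 and 93 nt, at 91.1% and 90.5% and at 68.9% and 67.1%.

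Most genes held a single member: 1646 had 1, 307 had 2 and 94 had 3 or more. Overlapping forms of an exon made 16 pairs, so that 29 members shared bases with another. In 18 pairs both exons lay between the same outer exons. Their inclusions cannot be added, as each is set against messages with neither exon and leaves out those with only the other. Rhot1, a mitochondrial GTPase, had 96 and 123 nt exons at 13.1% and 20.2%, and 12 reads joined them to each other, fewer than the 158 and 266 inclusion reads of each exon. Kif21a, a kinesin, had 108 and 39 nt exons at 53.1% and 46.4%, joined by 29 reads, beside 436 and 333 inclusion reads. Entr1 differed, with 150 and 69 nt exons at 8.48% and 33.4% joined by 90 reads, beside 84.5 inclusion reads of the 150 nt exon. Skipping reads, from messages with neither exon, numbered 1052 for Rhot1, 384 for Kif21a and 912 for Entr1. In a further 30 pairs each exon was an outer exon of the other, as for the 54 and 81 nt exons of the splicing regulator Rbfox1, at 94.997% and 75.1% with 1055 joining reads.

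The most members in any gene was 5, found in 3 genes, among them Neb and Emsy. Emsy, a chromatin regulator, had exons of 42 nt at 15.1% and 18.9%, and exons of 75, 165 and 150 nt at 86.4%, 87.9% and 91.0%. Its members thus fell at the low and the high end.

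At the limits of the rule, among members with 100 or more reads, the lowest inclusions were those of Mical3 (51 nt, 5.00%), Satb1 (96 nt, 5.01%), Pstk (66 nt, 5.09%), Smox (90 nt, 5.12%) and Zfp235 (210 nt, 5.13%). The highest were those of Gsr (159 nt, 95%), Rbfox1 (54 nt, 94.997%), Dip2b (213 nt, 94.99%), Zfp512b (129 nt, 94.98%) and Map3k3 (132 nt, 94.97%). Just outside lay Zranb2 and Dtna at 4.99%, Tada2a at 95.01% and Gabpb2 at 95.02%. In length, 30 nt exons of Luc7l2 and Ppp3ca lay inside and 27 nt exons of Ahi1 and Kif1a outside, and exons of Arhgef4 at 300 nt and Dscaml1 at 297 nt inside with those of Pecam1 and Synrg at 303 nt outside. In reads, Pkd1l1 and Elmo3 entered with 20 and Rbm47 and Slc36a2 missed with 19. In balance, Apc and Lrrc7 entered at 3-fold while Kif1c at 3.03-fold and Fam149b at 3.04-fold did not. The inclusion limits removed more exons than the others, since 6633 candidates lay above 95% and 384 below 5%.

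The R1 and R2 columns were compared, since the rule used only their sum. The median absolute difference in inclusion was 4.13 points over all members with reads in both columns and 3.08 points over the 2001 with 100 or more reads, of which 67.4% lay within 5 points. The comparison used Fisher's exact test (two-sided) per exon with Benjamini-Hochberg adjustment over all 6190 cassette exons. An exon was called at an adjusted p under 0.05 and a difference of 10 points or more. It sets 1 column against the other, not conditions, and covers counting error only. Over all cassette exons 0.452% were called, 0.355% with higher inclusion in R2 and 0.0969% with higher inclusion in R1. Of the members 13 were called, or 0.508%, close to that background, with 10 higher in R2 and 3 higher in R1. The adjusted p alone passed for 22 members, beside 0.759% of all cassette exons. Nnat was among those under 10 points, with an adjusted p of 2.2e-19 by Fisher's exact test on its 108315 reads. In R1 and R2 its left inclusion junction held 9185 and 15496 reads and its right one 20053 and 26234. With 14045 and 23302 skipping reads, the left junction alone shows almost no difference between columns, so the small difference of Nnat, which was not called, rests on the right one. Of the exons named above, Hnrnpa1, Sptan1 and Sfswap also passed the adjusted p under 10 points, at 1.4e-18, 1.8e-04 and 0.0026 by Fisher's exact test. At an unadjusted p under 0.05 there were 265 members, or 10.4%, beside 9.66% of all cassette exons. By list, Fisher's exact test called 1 RNA-binding regulator (Tra2b), 1 synaptic gene (Camk2d) and 1 matrix gene (Tnc), and 0 members of the other 4 lists, where 3 to 20 members had an unadjusted p under 0.05.

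All 3 members called higher in R1 had few skipping reads there. Tra2b, at chr16:22259059-22259334, had an inclusion of 86.3% in R1 and 59.96% in R2, with 28 and 184 skipping reads. Its adjusted p was 7.4e-09 by Fisher's exact test, and transcripts gave 26.9% and 26.4%. Morf4l1, a chromatin protein, had a 117 nt exon at 93.8% and 76.1%, with 9 and 85 skipping reads and 7.79% and 7.78% by transcripts. Tnc, which encodes the matrix protein tenascin-C, had a 273 nt exon at 96.4% and 85.4%, with 12 and 89 skipping reads and 66.0% and 59.0% by transcripts. For Tra2b and Morf4l1 the transcript values of the labelled libraries lay within 1 point of each other.

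The 5 largest calls higher in R2 rested on fewer reads. Piezo2, a mechanically gated channel, had a 72 nt exon at 11.1% in R1 and 95% in R2 on 49 reads in all, 9 of them skipping. Ube2l3, a ubiquitin-conjugating enzyme, had a 96 nt exon at 11.5% and 58.8% on 212 reads. Ppp1cc, a catalytic subunit of protein phosphatase 1, had a 105 nt exon at 33.3% and 72.0%, while transcripts gave 99.9% in both libraries. Neb encodes nebulin, a giant protein of the skeletal muscle thin filament, and 2 of its members were called. The 111 nt exon stood at 0% and 37.8%, with no inclusion reads in R1 against 24 skipping reads, which allows up to 12.5% if 3 counts are taken as the limit that a count of 0 allows, and the 105 nt exon at 9.43% and 51.7%. The Neb gene stood at 4.46 TPM in replicate 1 and 12.7 TPM in replicate 2, where the muscle markers were also higher, and transcripts gave 44.2% and 45.8% for both exons. The part of other cell types in the Neb calls was not tested.

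Of the 13 called members 9 had a transcript readout, and in 8 of these the labelled libraries lay within 10 points. The exception was Mlf1, named after its values were seen, with a 45 nt exon at 3.70% and 27.7% by junctions and 4.80% and 25.6% by transcripts. Mlf1 stood at 7.13 and 12.4 TPM in replicates 1 and 2. The symbol table lists a pseudogene named after each of Tra2b, Morf4l1, Ube2l3 and Ube2n, a further called gene, so their reads may be shared with near-identical copies, which was not tested. Of the 13, 9 were also called from each inclusion junction alone. The Tnc exon was not called from its left junction alone. The 105 nt exon of Neb and those of Camk2d and Ccdc85a, a further called gene, were not called from the right one alone. The inclusion junctions of Tra2b and Camk2d did not lie within 2-fold of each other.

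Transcript tables gave a second readout for 1434 members, those whose inclusion and skipping both have annotated transcripts with a level. The median inclusion over these was 59.9% by junctions and 53.4% by transcripts, the latter 53.4% in replicate 1 and 53.7% in replicate 2. The absolute difference between readouts had a median of 10.3 points, and 49.2% of members lay within 10 points and 19.1% more than 30 points apart. Between the libraries the transcript values differed by a median of 2.08 points, and 77.5% lay within 5 points. Across these exons the readouts correlated with Pearson's r of 0.70 and Spearman's rho of 0.70, a description over exons that share libraries. The libraries thus lay closer to each other than the readouts did.

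The 5 members with the largest gap between readouts were a 111 nt exon of the deubiquitinase gene Usp9x (94.4% by junctions, 1.67% and 1.28% by transcripts), a 105 nt exon of the remodelling gene Smarce1 (7.14%, 98.6% and 99.1%, with a pseudogene named after it), a 96 nt exon of Fnbp1 (90%, 0% and 1.32%), a 99 nt exon of the ankyrin gene Ank2 (82.3%, 1.84% and 1.73%) and a 63 nt exon of 4932438A13Rik (8.28%, 88.6% and 88.4%). In Ank2 the junction value rested on 1368 reads, in Usp9x on 138. Both readouts are tied to the same 3 joins per exon, but the transcript readout sums TPM of whole transcripts rather than junction reads. It also depends on which transcripts the annotation holds. Joins were read from GENCODE M21 and TPM was given for GENCODE M4, so transcripts absent from the latter were left out. The part of this dependence on annotation in the gaps was not tested.

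**Figure D5:**
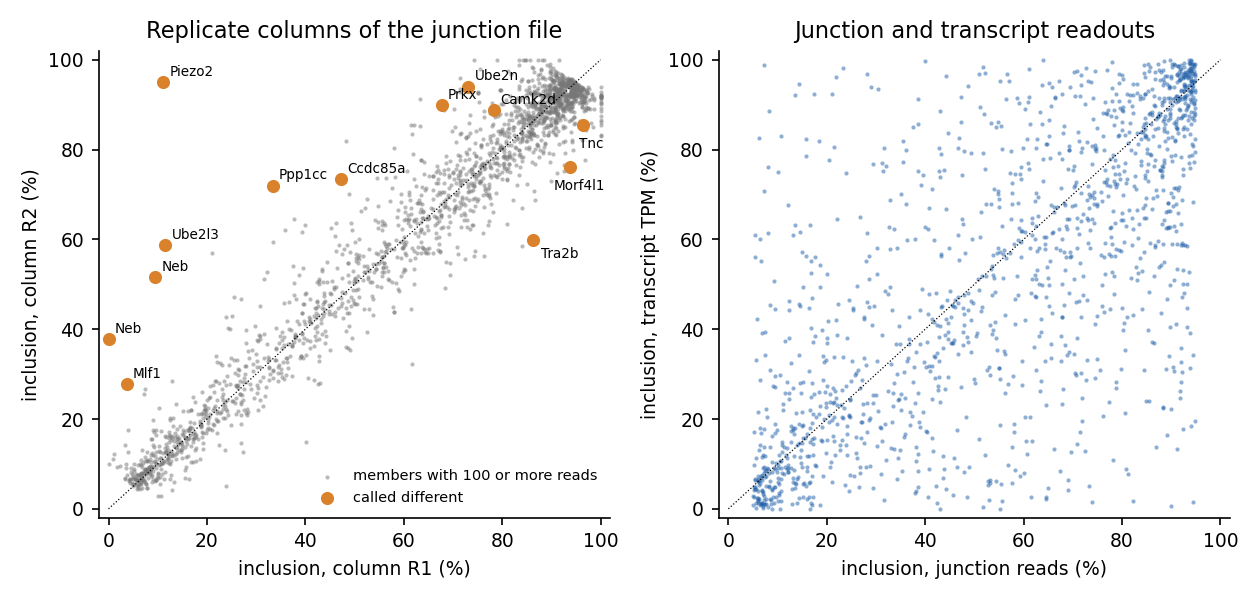
Left, inclusion in percent of members with 100 or more reads in column R1 (horizontal) and R2 (vertical), with the 13 called members in orange, of which Piezo2 has 49 reads. Right, inclusion by junction reads (horizontal) and by transcript TPM (vertical, mean of both libraries) for 1434 members: points scatter far more widely around the dotted line of equality on the right, where 49.2% lie within 10 points, than on the left.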

How the data were processed

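The authors deposited junction read counts on mm9, summed over R1 and R2, with a score per junction that falls with depth and that the file does not name, per the file's values. The junction names hold the R1 and R2 reads, and their sum equalled the deposited count on 100% of 1226020 lines. Exon positions came from the deposited Ensembl exon file. The authors' tables of both libraries, on mm10 and GENCODE M4 according to their read-me texts, give TPM and expected counts for genes and transcripts. No aligner or quantifier is named in the labels or headers used here. Each junction's BED start was read as the last base of the left exon and its end plus 1 as the first base of the right exon. Symbols came by gene ID for 2532 members and by transcript ID for 11, and 17 had none. Reading frames, sequences and GRCm38 positions came from GENCODE M21 by gene or transcript, exon length and intron lengths, matched for 2524 of 2560 members, with no coordinates converted. The role lists, members and tests were chosen with earlier results of these data known. Named exons are the 10 with the most reads, up to 4 per list, the 5 highest and lowest at 100 reads, the 5 largest calls in each direction, the 3 genes with the most members, exons at each limit and the 5 largest gaps between readouts. Some exons that this rule names are not reported here. Inclusion intervals are exact at 95% and cover counting error only, as amplified reads are not independent molecules. Replicates are labelled biological, and nothing says from how many animals. Fisher's exact test was checked on simulated counts. Python 3.11.15 with pandas 2.3.3, NumPy 2.4.6 and SciPy 1.17.1 was used.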

Additional observations from a re-analysis of the deposited data

How the results depend on the processing

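The number of members stayed within 1.5 times of 2560 when limits on reads, balance, inclusion or score, or the way junctions were read, changed. It ran from 1754 at an inclusion of 10% to 90% to 3256 with no balance filter. The number was 1653 for exons with an annotated skipping junction, below this range, and 2042 for wholly coding exons. Left out 1 column at a time, it was 2255 to 2395, with a median inclusion of 74.4% to 74.5%. The median of 74.4% became 73.0% at 50 or more reads, 72.9% at 100 or more, 75.3% at 2-fold balance, 74.8% with no balance filter, 64.0% at 10% to 90%, 75% from the lower inclusion junction, 73.8% with all junction sets of an exon summed and 68.9% for junctions scored at most 0.1. With annotated skipping junctions only, chosen after seeing the data, it was 59.0%, and for wholly coding exons, likewise chosen, 78.6%. The 44.9% of cassette exons over 27 nt that kept the frame became 52.7% at an inclusion of 20% to 80%, 46.5% at 100 or more reads, 54.8% with annotated skipping junctions and 48.3% for wholly coding exons. The 13 calls between columns became 22 by adjusted p alone, 25 from the left and 24 from the right inclusion junction, and stayed at 10 to 14 under the other alternatives. The median transcript inclusion of 53.4% became 55.7% from expected counts, 52.5% at a summed TPM of 1 or more, 53.7% without replicate 1 and 53.4% without replicate 2. The cause of these shifts was not tested. The planned search for motifs in the flanking introns was not run. No paired analysis was possible because there is only 1 group. Depth limited single exons: the Piezo2 exon, with 49 reads, had an interval of 49.2% to 84.7% on the summed reads.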
